A study of Mus musculus with 7 samples.

Results

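The genes described here are those of mouse potassium channels, taken as every gene symbol that starts with Kcn, letters and a digit. Of 19938 genes measured with a probe set of 1 symbol, 91 met this rule, and 88 remained once 3 noncoding RNAs named after a channel gene (Kcnd3os, Kcnmb4os1 and Kcnmb4os2) were set apart. The letters after Kcn sort the 88 into 25 voltage-gated channel genes (Kcna, b, c, d, q and h), 10 modulatory subunits that open only together with voltage-gated partners (Kcnf, g, s and v), 12 auxiliary subunits (Kcnab, Kcne and Kcnip), 12 genes of channels activated by calcium or sodium with their beta subunits (Kcnma, Kcnmb, Kcnn, Kcnt and the related Kcnu), 15 inward rectifiers (Kcnj) and 14 two-pore channels (Kcnk). The rule takes symbols by name and uses no measured value.

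The samples were cells of the whole bowel of mouse embryos at embryonic day 17.5. All embryos carried Wnt1-Cre, a recombinase driven by a promoter active in the neural crest, and the reporter R26R-EYFP, which makes yellow fluorescent protein once Cre has acted. Fluorescence-activated sorting gave 4 YFP-positive samples, labelled enteric neural crest-derived cells (ENCDC), and 3 YFP-negative samples, labelled non-ENCDC, and each was measured on 1 microarray. The study set the groups against each other to find genes enriched in the crest-derived cells late in the development of the enteric nervous system. Nothing in the labels ties the samples to separate embryos or litters, and the p-values therefore cover the spread among these samples alone.

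Potassium channels let potassium leave or enter a cell along its gradient and so set the resting voltage, end each action potential and space the next. Voltage-gated channels open when the cell depolarizes, calcium- and sodium-activated ones when those ions build up inside, and inward rectifiers and two-pore channels carry current at rest. In the bowel wall, neurons, glia, smooth muscle, interstitial cells, vessel walls and epithelium each use their own mixture of them.

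The markers of both labels were found. All 6 neuron markers and all 5 measured glia markers were higher in YFP-positive cells (median log2 fold change 4.27 and 2.61), and all 6 myeloid and all 6 fibroblast markers were lower (-3.86 and -1.83). None of 6 epithelium markers passed the test (median -0.15), and their mean level was 7.40 to 8.70 on YFP-positive arrays and 8.20 to 8.25 on YFP-negative arrays. Other lists were mixed. Of 5 markers of interstitial cells of Cajal, 3 were lower and 1, Etv1, was higher. Of 6 endothelium markers, 2 were lower and 1, Kdr, was higher. Among the YFP-positive arrays, the mean log2 level of the smooth muscle list was 8.20, 9.04, 9.66 and 10.11 on arrays 1 to 4, against 10.87, 10.79 and 10.33 on YFP-negative arrays 1 to 3. That of the neuron list was 9.68, 9.61, 9.33 and 8.98 on YFP-positive arrays, against 5.40, 5.03 and 5.43 on YFP-negative arrays. YFP-positive arrays 3 and 4 thus held more signal of non-neural lists and less of the neuron list than arrays 1 and 2. In sorted bulk samples, fewer cells of a type and less RNA per cell cannot be told apart.

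Potassium channel genes past the test were mostly higher in the crest-derived cells. Of the 91 symbols, 17 (18.7%) were higher in YFP-positive cells at a limma adjusted p under 0.05, where 8.39% of all genes were, and 5 (5.49%) were lower, where 9.11% of all genes were. Called and at least 2-fold higher were 9 of the 91 (9.89%), against 3.12% of all genes. Called and at least 2-fold lower were 4 of the 91 (4.40%), a share near the 4.53% of all genes. Groups did not overlap, with YFP-positive arrays higher, for 27 of the 91, a larger share than the 13.5% of all genes. They did not overlap, with YFP-positive arrays lower, for 9 of the 91, a smaller share than the 13.5% of all genes in that direction. The median log2 fold change of the members was 0.04, and that of all genes 0.01. The median thus stood near no difference, and the spread between members was wide, from 2.41 for Kcnt2 to -2.05 for Kcnj8. An unadjusted limma p under 0.05 was found for 40 of the 91, and for 30.2% of all genes. The count of higher members was 12 and of lower members 5 without YFP-positive arrays 3 and 4, and the higher count was 11 without YFP-negative array 1. The share of all genes called higher was smaller in those fits too, at 6.48% and 6.80%.

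**Figure D1:**
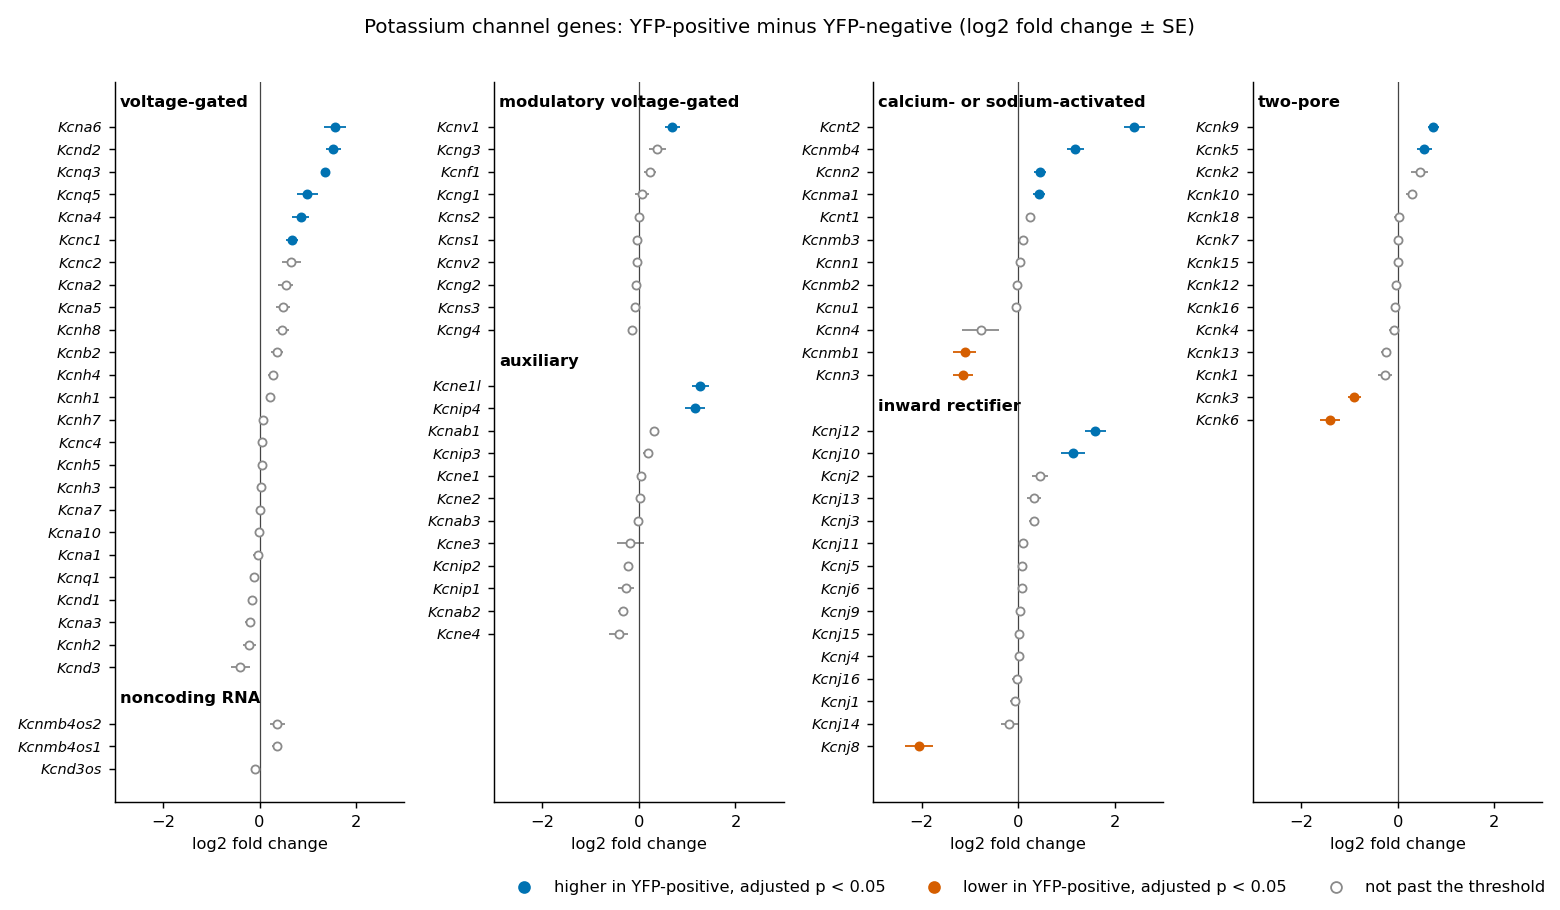
Log2 fold change (YFP-positive minus YFP-negative, x axis) with its standard error for each of the 91 genes, sorted by class. The filled points are the 17 higher and 5 lower genes, and 69 open points did not pass the threshold.

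Calls among voltage-gated channels were in 1 direction. Of 25 genes, 6 (24%) were higher in YFP-positive cells, where 8.39% of all genes were. Lower were 0, where 9.11% of all genes were, and the median log2 fold change was 0.22. The 6 were Kcna6, Kcnd2, Kcnq3, Kcnq5, Kcna4 and Kcnc1, and 13 of the 25 had an unadjusted limma p under 0.05, as did 30.2% of all genes. The higher genes numbered 10 after median centring and also after a second quantile normalization, where 9.49% and 10.2% of all genes were higher. None of the 7 Kcnh genes passed limma's test, and 3 had an unadjusted p under 0.05.

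Kcnq3 and Kcnq5, genes of the M-current, the slow potassium current that acetylcholine shuts off in autonomic neurons, were higher. Kcnq3 had log2 levels of 6.82, 6.74, 6.74 and 6.95 on the YFP-positive arrays, against 5.47, 5.58 and 5.33 on the YFP-negative arrays. Each group was narrow and lay well apart from the other, and the log2 fold change of 1.35 ± 0.09 (SE) had the smallest adjusted p of the 91 genes (2.55-fold, limma adjusted p = 1.14e-04). Kcnq5 read 6.97, 6.23, 6.31 and 6.65 on YFP-positive arrays, against 5.26, 5.53 and 5.85 on YFP-negative arrays. Its groups did not overlap, with a fold of 1.99 (limma adjusted p = 0.0187), and the call was lost without YFP-negative array 1 or 2, on leaving out YFP-positive array 4, and on leaving out YFP-positive arrays 3 and 4 together (adjusted p over all alternatives 0.00852 to 0.557, the highest here and in the ranges that follow being that of a stricter test against a fold of 1.5). Kcnq1, the relative of epithelium and heart, had 5.65 ± 0.12 (SD, n = 4) on YFP-positive arrays, against 5.76 ± 0.12 (SD, n = 3) on YFP-negative ones and did not pass (limma adjusted p = 0.470).

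A-type channels, which open and inactivate fast and so delay firing, gave both calls and null results. Kcnd2, the Kv4.2 channel, had levels of 6.45, 6.31, 5.85 and 6.07 on YFP-positive arrays, against 4.80, 4.65 and 4.49 on YFP-negative arrays. The lowest YFP-positive array stood above the highest YFP-negative one, and the log2 fold change was 1.53 ± 0.15 (SE) (2.88-fold, limma adjusted p = 7.25e-04). Its paralog Kcnd3, the Kv4.3 channel, had 5.73, 6.12, 5.78 and 6.12 on YFP-positive arrays, against 6.80, 6.14 and 6.07 on YFP-negative arrays, with overlapping groups and no call (log2 difference -0.40 ± 0.20 SE, limma adjusted p = 0.244). The remaining Kcnd gene, Kcnd1, also had overlapping groups and did not pass (log2 difference -0.15 ± 0.08 SE, limma adjusted p = 0.284). Kcna4, the A-type member of the Kv1 family, read 5.26, 5.42, 4.86 and 4.99 on YFP-positive arrays, against 4.11, 4.14 and 4.59 on YFP-negative arrays. It was 1.80-fold higher (limma adjusted p = 0.0158), and the call was lost without YFP-negative array 1 or 2 or YFP-positive array 1 (adjusted p over all alternatives 0.0077 to 0.879).

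Among delayed rectifiers, which repolarize the cell after a spike, Kcna6 (Kv1.6) had the largest change. It had 7.15, 6.29, 6.28 and 6.32 on YFP-positive arrays, against 4.80, 5.13 and 4.91 on YFP-negative arrays. YFP-positive array 1 lay above the other three of its group, and the fold was 2.96 (log2 fold change 1.57 ± 0.23 SE, limma adjusted p = 0.00377). Kcnc1, the Kv3.1 channel of fast-firing neurons, had 5.49, 5.14, 5.35 and 5.07 on YFP-positive arrays, against 4.44, 4.73 and 4.62 on YFP-negative arrays. It was 1.59-fold higher (limma adjusted p = 0.00976), and the call was lost with the replicate number as a block (limma adjusted p = 0.0587). Kcna2 (0.54 ± 0.15), Kcnh8 (0.47 ± 0.14) and Kcnc2 (0.66 ± 0.19, log2 fold change ± SE) lay nearest the threshold on its far side, with limma adjusted p of 0.0547, 0.0569 and 0.0570 and groups that did not overlap. The second probe set of Kcnh8 gave a difference of 1.30 on the log2 scale, and with probe sets averaged Kcna2 and Kcnh8 passed (adjusted p = 0.0217 and 0.00477). Kcna1 and Kcna3, a channel of lymphocytes, had log2 fold changes of -0.03 ± 0.10 and -0.19 ± 0.10 (SE) and did not pass. Nor did Kcnb2 at 0.36 ± 0.13, Kcnh2 at -0.21 ± 0.14 and Kcnh7 at 0.08 ± 0.08. Kcnh5 differed by 0.05 ± 0.07.

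**Figure D2:**
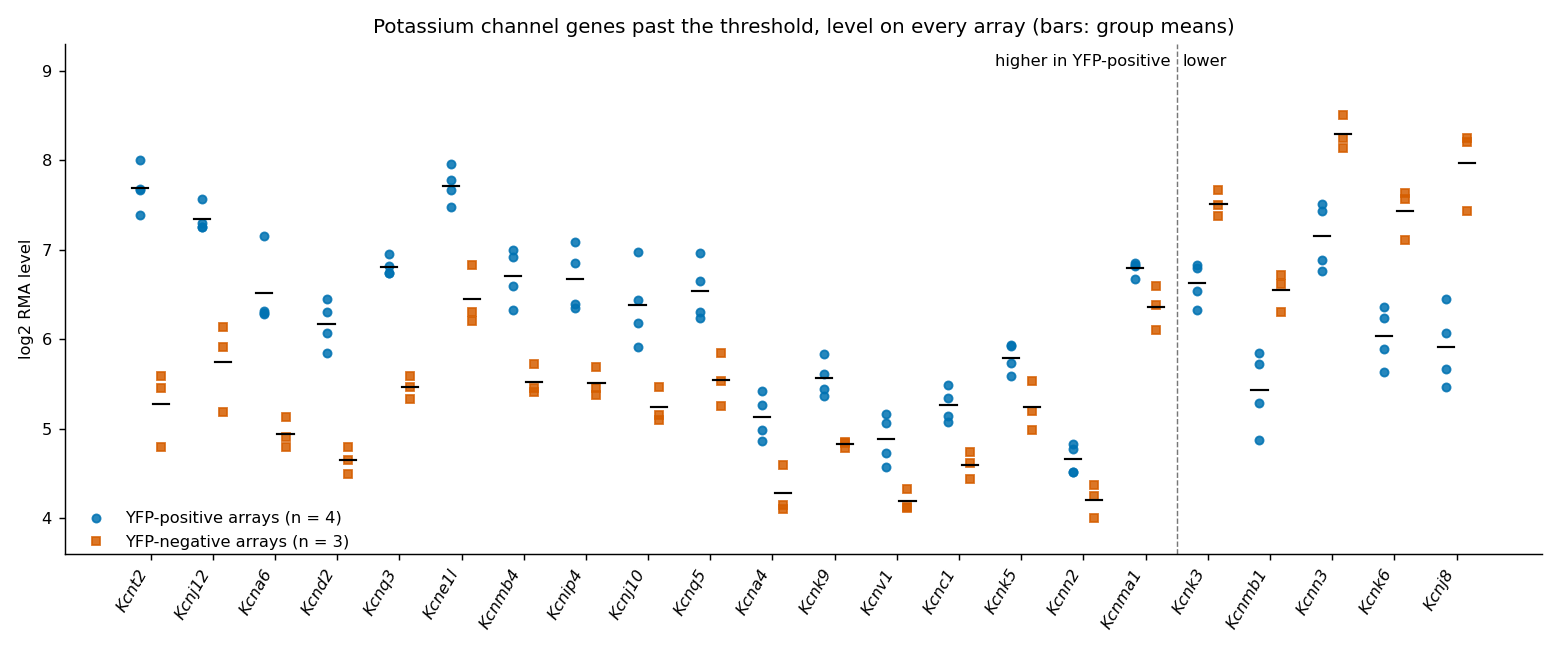
Log2 RMA level (y axis) of the 22 called genes on each of the 4 YFP-positive arrays (circles) and 3 YFP-negative arrays (squares), with bars at group means. The groups do not overlap for any of the 22, and the gap is widest for Kcnt2 among higher and Kcnj8 among lower genes.

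Modulatory and auxiliary subunits shift the gating of voltage-gated channels. Kcnv1, the Kv8.1 subunit that joins Kv2 channels, was the single modulatory gene of 10 that passed. It had 5.17, 4.57, 5.06 and 4.72 on YFP-positive arrays, against 4.32, 4.11 and 4.13 on YFP-negative arrays. The groups were close together but did not overlap (1.61-fold, limma adjusted p = 0.0227), and the call was lost without YFP-negative array 2 or 3, on leaving out YFP-positive array 3, and on leaving out YFP-positive arrays 3 and 4 together (adjusted p over all alternatives 0.0125 to 1). The other 9 had log2 fold changes from -0.13 to 0.38, among them Kcns3 (-0.08 ± 0.06 SE) and Kcns2 (0.01 ± 0.05 SE).

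Of 12 auxiliary genes 2 were higher and 0 lower, where 8.39% and 9.11% of all genes were. Kcne1l, a single-pass beta subunit, had 7.95, 7.78, 7.66 and 7.47 on YFP-positive arrays, against 6.83, 6.30 and 6.20 on YFP-negative arrays (2.42-fold, limma adjusted p = 0.00303). Kcnip4, a calcium-binding subunit of Kv4 channels, read 6.85, 7.09, 6.39 and 6.35 on YFP-positive arrays, against 5.46, 5.69 and 5.38 on YFP-negative arrays (2.24-fold, limma adjusted p = 0.00716). Both kept all YFP-positive arrays above all YFP-negative ones. The other Kv4 subunits Kcnip1 (-0.28 ± 0.17), Kcnip2 (-0.22 ± 0.07) and Kcnip3 (0.20 ± 0.10, log2 fold change ± SE) did not pass. The groups of Kcnip2 did not overlap, with YFP-positive arrays lower (limma adjusted p = 0.0781). Dpp6, a membrane protein that also joins Kv4 channels, was higher too, at 5.55 ± 0.31 (SD, n = 4) on YFP-positive arrays, against 4.47 ± 0.16 (SD, n = 3) on YFP-negative ones (limma adjusted p = 0.00570), though not with its probe sets averaged (adjusted p = 0.0655). Dpp10 was not called (log2 fold change 0.07 ± 0.06 SE). Of the Kv1 beta subunits, Kcnab1 (0.32 ± 0.10 SE) and Kcnab2 (-0.34 ± 0.10 SE) lay on opposite sides with limma adjusted p of 0.0688 and 0.0638. Kcne1 read 3.73 in YFP-positive and 3.70 in YFP-negative cells. Kcne3, a partner of Kcnq1 in epithelium, had 4.83, 5.64, 5.73 and 6.17 on YFP-positive arrays, against 5.83, 5.73 and 5.74 on YFP-negative arrays. On YFP-positive array 4, where the mean of the epithelium list was 8.70 against 7.40 on array 1, it was highest of all 7 arrays; the part of epithelial RNA in this was not tested.

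Channels activated by calcium or sodium held the largest increase and also changed in both directions. Of 12 genes, 4 rose and 2 fell in YFP-positive cells (median log2 fold change 0.07), where 8.39% and 9.11% of all genes did. Kcnt2, the sodium-activated channel Slick, had 7.67, 8.004, 7.39 and 7.68 on YFP-positive arrays, against 4.79, 5.46 and 5.59 on YFP-negative arrays. The lowest YFP-positive array lay far above the highest YFP-negative one, and the fold was 5.30 (log2 fold change 2.41 ± 0.22 SE, limma adjusted p = 4.78e-04). The paralog Kcnt1, Slack, had a log2 fold change of 0.24 ± 0.07 (SE) with groups that did not overlap, and did not pass (limma adjusted p = 0.0622).

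The subunits of the large-conductance channel BK gave calls in both directions. Kcnma1, its pore-forming subunit, was close between the groups, with 6.82, 6.86, 6.67 and 6.83 on YFP-positive arrays, against 6.39, 6.60 and 6.10 on YFP-negative arrays. It passed narrowly as 1.35-fold higher (limma adjusted p = 0.0485), and the call was lost without any 1 array other than YFP-negative array 2, and without YFP-positive arrays 3 and 4. It was also lost with array weights (adjusted p = 0.0871), with the trend and robust options (0.0506) and with probe sets averaged (log2 fold change 0.18, adjusted p = 0.223), and in 13 of 17 alternatives in all (adjusted p 0.0255 to 1). Both counts hold the replicate block on 6 and on 7 arrays, which gave the same values. A second probe set of Kcnma1, which read only 2.76 to 3.13 over the 7 arrays, differed by -0.06 on the log2 scale. The averaged values include this dim probe set. Kcnmb4, the beta subunit of neurons, had 6.99, 6.92, 6.59 and 6.33 on YFP-positive arrays, against 5.45, 5.72 and 5.41 on YFP-negative arrays, and was 2.27-fold higher (limma adjusted p = 0.00388). Kcnmb1, the beta subunit of smooth muscle, had 4.87, 5.29, 5.72 and 5.85 on YFP-positive arrays, against 6.71, 6.62 and 6.31 on YFP-negative arrays, and was 2.16-fold lower (limma adjusted p = 0.0202). Of the 4 beta subunit genes, Kcnmb4 and Kcnmb1 thus changed in opposite directions, while Kcnmb2 (log2 fold change -0.03 ± 0.08 SE) and Kcnmb3 (0.09 ± 0.08 SE) did not pass. Kcnmb1 was higher on YFP-positive arrays 3 and 4 than on arrays 1 and 2, as was the mean of the smooth muscle list (2 of 6 markers lower, 0 higher), whose part was not tested. Its call was lost without YFP-negative array 1 or 2 or YFP-positive array 2 (adjusted p over all alternatives 0.012 to 0.406).

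Of the 3 genes of small-conductance calcium-activated channels, 1 fell, 1 rose and Kcnn1 (SK1) did not pass (log2 fold change 0.05 ± 0.10 SE). Kcnn3 (SK3) had 6.89, 6.76, 7.51 and 7.44 on YFP-positive arrays, against 8.13, 8.50 and 8.25 on YFP-negative arrays, and was 2.21-fold lower (limma adjusted p = 0.00997). In the gut wall this channel is known from fibroblast-like cells that carry the PDGF receptor alpha, whose gene Pdgfra was lower as well (log2 fold change -2.18, limma adjusted p = 0.00668). The part of such cells in the level of Kcnn3 was not tested. The call of Kcnn3 was lost without YFP-negative array 2 (adjusted p = 0.0507; over all alternatives 0.00554 to 0.226). Kcnn2 (SK2) had 4.83, 4.77, 4.52 and 4.51 on YFP-positive arrays, against 4.25, 4.003 and 4.37 on YFP-negative arrays, and was 1.37-fold higher (limma adjusted p = 0.0448). That call was lost without any 1 array other than YFP-negative array 3, and without YFP-positive arrays 3 and 4 (adjusted p over all alternatives 0.0235 to 1).

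Kcnn4, the intermediate-conductance channel of red blood cells and lymphocytes, was even on the YFP-positive arrays and uneven on the YFP-negative ones. It had 5.31, 5.20, 5.33 and 5.28 on YFP-positive arrays, against 5.37, 5.70 and 7.10 on YFP-negative arrays, and did not pass (log2 difference -0.78 ± 0.38 SE, limma adjusted p = 0.226). The mean level of the 2 measured erythroid markers, Alas2 and Slc4a1, was 5.62 to 6.04 on the YFP-positive arrays, against 6.46, 9.33 and 11.41 on the same YFP-negative arrays. Kcnn4 and the erythroid markers were thus both highest on YFP-negative array 3, and the part of red cell RNA in its level was not tested. Kcnu1, a channel of sperm, had 3.96 in YFP-positive and 4.01 in YFP-negative cells.

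Of 15 inward rectifiers 2 were higher and 1 was lower (median log2 fold change 0.08), where 8.39% and 9.11% of all genes were. Kcnj12 (Kir2.2), which holds the resting potential near that of potassium, had 7.56, 7.25, 7.25 and 7.30 on YFP-positive arrays, against 6.13, 5.18 and 5.92 on YFP-negative arrays. YFP-positive arrays lay close together and all above the others, at 3.03-fold (log2 fold change 1.60 ± 0.22 SE, limma adjusted p = 0.00293). Kcnj10 (Kir4.1), the channel by which glia take up potassium, had 6.98, 5.91, 6.44 and 6.18 on YFP-positive arrays, against 5.10, 5.46 and 5.15 on YFP-negative arrays. It was 2.20-fold higher (limma adjusted p = 0.0190), and the call was lost without YFP-negative array 1 or 3, on leaving out YFP-positive array 3, and on leaving out YFP-positive arrays 3 and 4 together (adjusted p over all alternatives 0.0113 to 0.362). Kcnj16, which can join Kcnj10 in 1 channel, had 3.35 ± 0.13 (SD, n = 4) on YFP-positive arrays, against 3.38 ± 0.19 (SD, n = 3) on YFP-negative ones.

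The channels gated by ATP (KATP) pair a pore of Kcnj8 or Kcnj11 with a regulatory subunit of Abcc8 or Abcc9. Kcnj8 (Kir6.1), the pore of vascular smooth muscle and pericytes, had the largest decrease of the 91 genes. It had 5.47, 5.67, 6.45 and 6.07 on YFP-positive arrays, against 8.25, 8.20 and 7.44 on YFP-negative arrays. The highest YFP-positive array stood below the lowest YFP-negative one, and the gene was 4.14-fold lower (log2 fold change -2.05 ± 0.29 SE, limma adjusted p = 0.00327). With the replicate number as a block the call was lost (limma adjusted p = 0.0537). Abcc9, its partner and its neighbour on chromosome 6, had 6.37, 6.52, 7.14 and 7.66 on YFP-positive arrays, against 8.81, 8.66 and 8.55 on YFP-negative arrays, and fell by 1.75 ± 0.30 (SE) on the log2 scale (limma adjusted p = 0.00789). Kcnj11 and Abcc8, the pair of pancreatic beta cells and many neurons, did not pass (log2 fold change 0.09 ± 0.06 and -0.04 ± 0.06 SE). Of the 6 pericyte markers, 4 fell in YFP-positive cells and 0 rose, with a mean level of 6.02 to 6.51 on YFP-positive and 6.81 to 7.13 on YFP-negative arrays. Their part in the level of Kcnj8 and Abcc9 was not tested.

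The promoters of 4 genes are shown. Kcnt2 and Kcnq5 were picked because their windows alone among those of the called genes hold the CAGCACC motif described here, and Kcnj8 with its channel partner Abcc9 because they are neighbours that were both lower. Each is the 250 bases before the RefSeq start, build GRCm38.p6, 5′ to 3′ on the gene's strand: Kcnt2 at chr1:140245468-140245717 (plus strand), Kcnq5 at chr1:21962651-21962900 (minus), the upstream of its 2 listed starts, Kcnj8 at chr6:142571615-142571864 (minus) and Abcc9 at chr6:142702275-142702524 (minus). Capitals mark CAGCACC, a piece of the left arm of the RE1 element bound by the repressor REST, on either strand, and CANNTG, the E-box of bHLH factors, which reads the same on both strands.
Kcnt2: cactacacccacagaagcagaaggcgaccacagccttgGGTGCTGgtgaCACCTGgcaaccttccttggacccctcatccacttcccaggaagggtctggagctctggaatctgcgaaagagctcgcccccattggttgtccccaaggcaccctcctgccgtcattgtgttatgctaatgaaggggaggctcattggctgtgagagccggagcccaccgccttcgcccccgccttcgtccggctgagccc
Kcnq5: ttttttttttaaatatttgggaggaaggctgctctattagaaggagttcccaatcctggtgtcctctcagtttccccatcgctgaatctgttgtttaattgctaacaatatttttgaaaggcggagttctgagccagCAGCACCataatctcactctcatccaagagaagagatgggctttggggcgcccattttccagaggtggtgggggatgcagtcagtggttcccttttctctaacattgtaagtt
Kcnj8: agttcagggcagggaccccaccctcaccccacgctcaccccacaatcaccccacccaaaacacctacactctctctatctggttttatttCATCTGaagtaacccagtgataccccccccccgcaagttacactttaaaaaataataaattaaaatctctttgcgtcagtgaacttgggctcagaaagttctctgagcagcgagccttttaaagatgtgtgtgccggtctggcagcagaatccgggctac
Abcc9: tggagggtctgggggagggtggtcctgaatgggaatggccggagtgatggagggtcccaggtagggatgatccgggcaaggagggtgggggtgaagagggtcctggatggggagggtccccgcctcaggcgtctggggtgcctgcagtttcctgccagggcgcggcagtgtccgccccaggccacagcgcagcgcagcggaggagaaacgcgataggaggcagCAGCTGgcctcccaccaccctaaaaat
Windows were found for 16 of the 22 called genes, 18 in all, and not for Kcnq3, Kcnv1, Kcnn2, Kcnk3, Kcnk6 and Kcnk9. CAGCACC occurred in 2 of the 18 windows (11.1%), those of Kcnt2 and Kcnq5, against 5.73% of all 32851 windows. CANNTG occurred in 9 of 18 (50%), against 66.2%. The 2 motifs do not overlap in the windows shown. GC content was 61.6% for Kcnt2, 44.4% for Kcnq5, 49.2% for Kcnj8 and 66.8% for Abcc9. A match is a run of letters only and was not tested as a binding site.

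Two-pore channels carry background current. Of 14 genes, 2 were higher and 2 lower (median log2 fold change -0.01), where 8.39% and 9.11% of all genes were. The acid-sensitive TASK-3 and TASK-1 went in opposite directions. Kcnk9 (TASK-3) had 5.62, 5.45, 5.83 and 5.36 on YFP-positive arrays, against 4.78, 4.84 and 4.85 on YFP-negative arrays, and was 1.67-fold higher (limma adjusted p = 0.00484). Kcnk3 (TASK-1) had 6.54, 6.33, 6.79 and 6.83 on YFP-positive arrays, against 7.67, 7.50 and 7.38 on YFP-negative arrays, and was 1.86-fold lower (limma adjusted p = 0.00499). Kcnk6 (TWIK-2), a channel of vessels and immune cells, was 2.65-fold lower, with 5.64, 5.89, 6.36 and 6.24 on YFP-positive arrays, against 7.57, 7.63 and 7.11 on YFP-negative arrays (limma adjusted p = 0.00390). Kcnk5 (TASK-2), which opens at alkaline pH, had 5.93, 5.92, 5.73 and 5.59 on YFP-positive arrays, against 4.98, 5.20 and 5.54 on YFP-negative arrays. Its groups nearly touched (1.47-fold, limma adjusted p = 0.0434), and the call was lost without any 1 array other than YFP-positive array 4 or YFP-negative array 3, and without YFP-positive arrays 3 and 4 (adjusted p over all alternatives 0.016 to 1). The mechanosensitive Kcnk2 (0.46 ± 0.18 SE) and Kcnk1 (-0.26 ± 0.15 SE) did not pass, nor did Kcnk18 (0.03 ± 0.10 SE), log2 fold changes all.

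All 5 lower genes, Kcnj8, Kcnk6, Kcnn3, Kcnmb1 and Kcnk3, were higher on YFP-positive arrays 3 and 4 than on arrays 1 and 2. Over all genes lower in YFP-positive cells 48.6% had that order. The myeloid list (mean level 5.73, 6.10, 6.66 and 6.90 on YFP-positive arrays 1 to 4, against 9.84, 10.11 and 10.12 on YFP-negative arrays) and the fibroblast list (7.58, 7.95, 8.48 and 8.74 on YFP-positive arrays, against 10.31, 10.29 and 9.63 on YFP-negative arrays) had it too. Of the 17 higher genes, 7 (Kcna4, Kcnd2, Kcne1l, Kcnip4, Kcnmb4, Kcnn2 and Kcnk5) had the opposite order, as did 49.5% of all higher genes. The part of non-neural RNA in these levels was not tested.

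**Figure D3:**
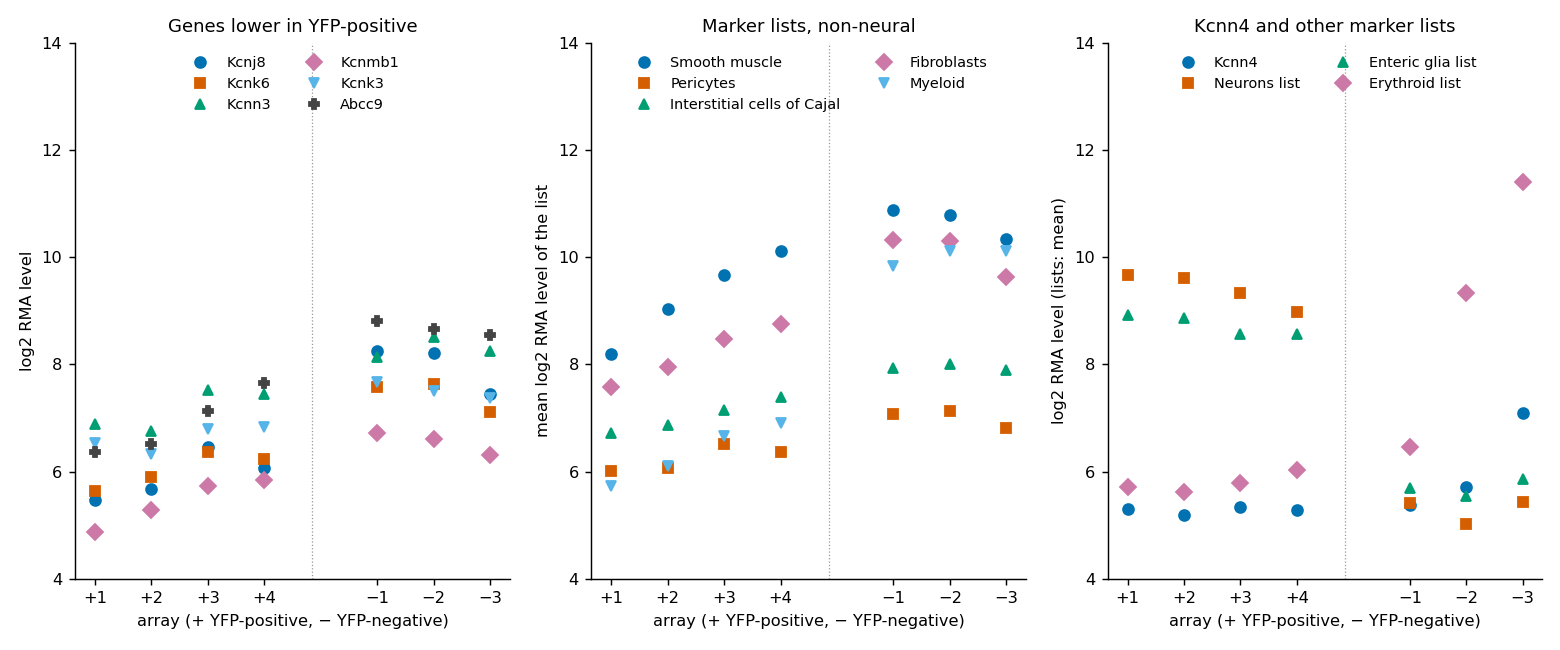
Log2 RMA level of the 5 lower genes and Abcc9 (left), mean log2 level of 5 non-neural marker lists (middle), and Kcnn4 beside the mean levels of the neuron, glia and erythroid lists (right), on YFP-positive arrays 1 to 4 and YFP-negative arrays 1 to 3. On YFP-positive arrays 3 and 4 the lower genes and the non-neural lists are higher than on arrays 1 and 2, and Kcnn4 is highest on YFP-negative array 3 with the erythroid list.

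Of 16 measured partner genes outside the Kcn symbols, 4 were higher, where 8.39% of all genes were, and 1, Abcc9, was lower, where 9.11% were. Adam22, a receptor that anchors Kv1 channels at the axon through Lgi proteins, had 7.10 ± 0.16 (SD, n = 4) on YFP-positive arrays, against 5.55 ± 0.15 (SD, n = 3) on YFP-negative ones (log2 fold change 1.55 ± 0.11 SE, limma adjusted p = 1.69e-04). Cntnap2, which clusters Kv1 channels along axons, was higher by 0.63 ± 0.10 (SE, limma adjusted p = 0.00614). Hcn3, of the cation channels opened by hyperpolarization, was higher by 0.32 ± 0.05 (SE, limma adjusted p = 0.00674), while Hcn2 and Hcn4 did not pass. None of the 4 BK gamma subunit genes (Lrrc26, Lrrc38, Lrrc52 and Lrrc55) passed.

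All 22 calls had groups that did not overlap, which a call on so few arrays makes likely and which adds no separate support. Of them, 13 held whichever 1 array was left out. The shares of all called genes that did the same are not given here. Kcna6, Kcnd2, Kcnq3, Kcnt2 and Kcnj12 kept an adjusted p under 0.05 in all 17 alternatives, and no called gene changed sign. The replicate block on 6 and on 7 arrays gave the same values, so the 17 count it more than once. Kcna4, Kcnc1, Kcnv1 and Kcnn2 had 16 alternatives, being absent from the fit without the dimmest genes. Of the 91 genes, 37 were among the dimmest genes of the table (the third of it with least signal), as were 4 of the 22 called genes, Kcna4, Kcnc1, Kcnv1 and Kcnn2. In addition, 15 members, none of them called, had the same value on at least 4 of the 7 arrays, a share of 16.5% against 16.4% of all genes. The file holds no detection calls, so whether a dim gene was above background is not known.

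**Figure D4:**
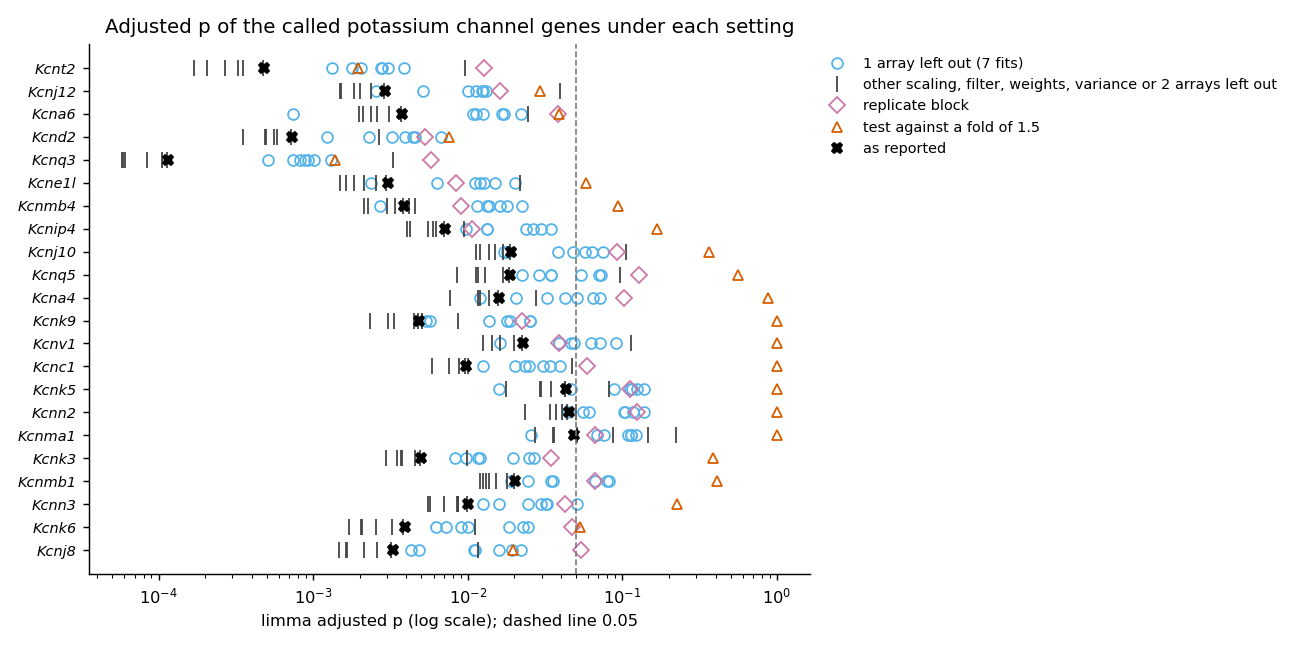
Limma adjusted p (x axis, log scale) of the 22 called genes in the fit as reported (crosses), with 1 array left out, with a replicate block, against a fold of 1.5 and under the other alternatives. Kcnt2, Kcnj12, Kcna6, Kcnd2 and Kcnq3 stay left of 0.05 in every setting, and Kcnma1, Kcnn2 and Kcnk5 lie closest to it as reported.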

How the data were processed

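The deposited log2 levels, 1 per probe set and array, come from RMA in Affymetrix Expression Console (per the submitters' processing notes). RMA subtracts background, equalises the distributions of the arrays and combines the probes of a set, so total RNA differences between samples are scaled away. RNA was amplified before labelling, per the labels' protocols. Program versions: not given in the sources used here. Of 35556 probe sets, 21789 had 1 gene symbol in the platform annotation, 1621 had several and 12146 were not listed there. The probe set with the highest mean over the 7 arrays stood for each of 999 genes with several, which left 19938 genes. All 91 members matched the GRCm38.p6 RefSeq table by Entrez identifier.

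Groups were compared over all genes with lmFit and eBayes of limma 3.58.1 in R 4.3.3, the group as the only term, and Benjamini-Hochberg adjustment at 0.05. Fold changes are YFP-positive minus YFP-negative log2 means, with the moderated standard error. Python 3.11.15, pandas 2.3.3, numpy 2.4.6 and matplotlib 3.10.9 did the rest. The fit was tested on simulated data. Named are all members past the threshold, the members of highest and lowest mean in each class, the 3 nearest the threshold and 35 fixed symbols, of which 33 were analysed here. The partner and transport genes and the markers came from fixed lists. The family was taken up, and its name rule and the lists were written, with earlier results of these data known, although the rule itself uses no values. Kcnd1, Kcnmb2, Kcnmb3, Kcnn1 and Kcnip2 were added after their values were seen, to complete their families. Same-numbered samples of the groups had deviations that correlated at 0.008, -0.086 and 0.038, and the numbers were not taken as pairs. So few arrays cannot exclude a pairing. The alternatives were other variance settings, scalings, filters, probe set rules, weighted arrays, a replicate block, testing against a fold of 1.5 and arrays left out.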

Additional observations from a re-analysis of the deposited data

Results flagged for a closer look

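The levels of 51 named members were searched on the 4 YFP-positive arrays for a single array apart, as a gap to the nearest other array that takes a larger part of the group's range than Dixon's critical value. For independent normal values, chance gives such a gap in about 1 in 20 groups, and 7 of 51 had one. Repeated values within a group can raise the gap ratio, and Kcnb2, Kcnh2, Kcnh7, Kcnj12 and Kcnip1 had them. The 1 in 20 rate thus does not hold for such groups, and no rate over all genes is given here. Array 1 was the array apart in 6 of the 7. It was highest for Kcna6 (7.15 against 6.28 to 6.32, gap ratio 0.957), Kcnj12 (7.56 against 7.25 to 7.30, 0.858), Kcnb2 (5.96 against 5.55 to 5.62, 0.830), Kcnh7 (3.97 against 3.68 to 3.73, 0.845) and Kcnk18 (4.64 against 4.27 to 4.33, 0.853). It was lowest for Kcnh2 (6.20 against 6.64 to 6.66, 0.955). Kcnip1 was lowest on array 2 (4.94 against 5.23 on the other arrays, ratio 1), where the other arrays shared 1 value. Of these genes Kcna6 and Kcnj12 were called, and both calls held without YFP-positive array 1.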

How the results depend on the processing

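Of the 22 calls, 5 held in all 17 alternatives and 0 changed sign. Leaving out 1 array gave 11 to 16 higher and 4 to 5 lower members, with a median log2 fold change of 0.02 to 0.06. Of all genes, 6.03% to 7.28% were then higher and 5.85% to 9.48% lower, against 8.39% and 9.11% on all arrays. In those fits the higher counts by class were 4 to 6 (voltage-gated), 0 to 1 (modulatory), 2 to 3 (auxiliary), 2 to 4 (calcium- or sodium-activated), 1 to 3 (inward rectifier), 1 to 2 (two-pore) and 0 to 1 (noncoding), and the lower counts 0 to 1 (auxiliary), 0 to 2 (calcium- or sodium-activated) and 2 to 3 (two-pore). With a replicate block, 12 members and 6.24% of all genes were higher, and 3 members and 6.34% of all genes were lower. By class the members were 2 and 1 (calcium- or sodium-activated), 1 and 0 (inward rectifier) and 1 higher (two-pore). The block on 6 and on 7 arrays gave the same values. Of the 22 calls it lost 9, those of Kcna4, Kcnc1, Kcnq5, Kcnma1, Kcnmb1, Kcnn2, Kcnj10, Kcnj8 and Kcnk5. The labels do not say whether same-numbered samples belong together, so what these losses mean is not known. A test against a fold of 1.5, a stricter question, called 5 members higher and 1 lower, and 2.35% and 2.80% of all genes. By class the members were 3 higher (voltage-gated), 0 (modulatory, auxiliary and two-pore), 1 higher and 0 lower (calcium- or sodium-activated) and 1 higher (inward rectifier). Centring on medians or quantile scaling gave 10 higher voltage-gated genes (23 members in all), where 9.49% and 10.2% of all genes were higher. Quantile scaling gave 1 higher noncoding RNA. Array weights gave 2 lower auxiliary genes, where 11.4% of all genes were lower. The cause was not tested. Without the third of genes of lowest mean, 0 modulatory genes were higher and the median log2 fold change was 0.0805, with fewer genes tested. Without YFP-positive arrays 3 and 4, the higher counts were 0 (modulatory), 2 (calcium- or sodium-activated), 1 (inward rectifier) and 1 (two-pore).

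Differences near 0 changed sign, none of them called. In log2 units, Kcnj16 was 0.00519 with centring and -0.111 to 0.0732 (0.0360 with YFP-positive array 2 left out) over fits on 1 array fewer. Kcne1 was -0.0184 with the replicate block and -0.0184 to 0.0657 on 1 array fewer. Kcna1 was 0.0230 with the block, 0.0349 without YFP-positive arrays 3 and 4, and -0.0997 to 0.0312 on 1 array fewer. Kcnu1 was 0.00715 without YFP-positive arrays 3 and 4. On 1 array fewer Kcns2 ranged over -0.0168 to 0.0301, Kcnk18 over -0.0611 to 0.0624 and Kcne3 over -0.370 to 0.0771. With no detection calls, dim genes limit what a missing call shows.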

Other observations

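Other genes of potassium transport were close to even between the groups. Of 7 measured, 1 was higher and 1 lower in YFP-positive cells, with a median log2 fold change of 0.05. Atp1b2, a beta subunit of the sodium-potassium pump known from glia, had 7.33 ± 0.14 (SD, n = 4) on YFP-positive arrays, against 6.82 ± 0.11 (SD, n = 3) on YFP-negative ones (limma adjusted p = 0.00999). Atp1b3, a beta subunit found in many tissues, was lower, with 8.85 ± 0.05 (SD, n = 4) on YFP-positive arrays, against 9.49 ± 0.20 (SD, n = 3) on YFP-negative ones (limma adjusted p = 0.00430). Slc12a5, the chloride extruder of mature neurons, did not pass (log2 fold change 0.07 ± 0.15 SE).

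Of the 3 noncoding RNAs named after channel genes none passed the limma test, and 2 had an unadjusted p under 0.05, as did 30.2% of all genes. Kcnmb4os1, named for the opposite strand of Kcnmb4, had 5.27 ± 0.10 (SD, n = 4) on YFP-positive arrays, against 4.91 ± 0.21 (SD, n = 3) on YFP-negative ones, with groups that did not overlap (limma adjusted p = 0.0652). Kcnmb4os2 had a log2 fold change of 0.37 ± 0.15 (SE, limma adjusted p = 0.143) and Kcnd3os one of -0.10 ± 0.08 (SE, limma adjusted p = 0.510). Whether the array tells the strands apart is not given in the sources used here.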
